A study of Mus musculus with 37 samples.

Results

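Sham-irradiated mammary glands collected 4 weeks after the mock exposure were compared with those collected 1 week after it. These are 7 of the 37 arrays of the series, 4 of week 4 and 3 of week 1, chosen by their titles. All mice were female BALB/c (BALB/cJ by the supplier's name) that had lost the inguinal mammary gland of one side, and the intact gland of the other side was profiled. They travelled to the irradiation facility at 9 weeks of age and were mock exposed there at 10 weeks of age. The week 1 glands came from mice of 11 weeks at that facility, and the week 4 glands from mice of 14 weeks after the journey back to the home facility. Week, age and place of collection therefore cannot be told apart. The other 30 arrays were 3 of sham glands at week 12 and 27 of glands from mice given 100 cGy of gamma rays or 30 or 10 cGy of silicon ions (Si), 3 per treatment and week. Each gene was read from 1 probe set, and 13174 of 18820 named genes passed a filter on low levels. Levels are RMA log2 values, and a difference of 1 is a doubling. Differences are week 4 minus week 1 ± SE from limma, and a gene is called at an adjusted p under 0.05 after Benjamini-Hochberg adjustment over all genes tested. The labels do not say how many animals gave each RNA sample or whether replicates came from separate ones, and p-values reflect the spread among these arrays, part of which may be technical.

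The mammary gland of a young adult virgin mouse is a branched epithelial tree of luminal and basal cells inside a fat pad that also holds vessels, fibroblasts, macrophages, mast cells and a lymph node. Immediate early genes such as Fos, Fosb and Egr1 encode transcription factors that cells transcribe within minutes of a stimulus, without new protein synthesis, and switch off again quickly. Resident macrophages and mast cells sit in the stroma around ducts and vessels, and Notch receptors act in endothelium and in the luminal lineage.

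The marker levels were those of a fat-rich gland. Adipoq, the adipocyte hormone adiponectin, lay between 11.24 and 11.88 on the 7 arrays, and the luminal keratin gene Krt8 between 9.65 and 11.42. Signal of other tissues varied widely from array to array within each week. Cd3e, a T cell marker, stood at 7.95, 5.99 and 9.98 at week 1 and at 4.42, 9.19, 5.39 and 8.97 at week 4. Acta1, skeletal muscle actin, stood at 9.64, 7.97 and 11.23 and at 5.09, 10.70, 11.72 and 9.86. Lymph node and muscle signal was thus high and low within both weeks, and none of the 20 T and NK cell, 20 B cell or 26 skeletal muscle genes tested was called. Correlations between arrays put week 1 replicate 3 and week 4 replicate 1 farthest from the series, with median correlations of 0.932 and 0.946 to the other arrays over the genes tested. Week 1 replicate 3 was high in lymph node and muscle genes and low in epithelium, and week 4 replicate 1 was low in both and high in brown adipocyte genes. In whole tissue, fewer cells of a type and less RNA per cell cannot be told apart.

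Between the weeks 775 of 13174 genes were called (5.88%). Of these, 254 were higher at week 4 (1.93%) and 521 lower (3.95%). The differences were mostly small: the median called gene differed 1.40-fold, and 20 genes differed more than 2-fold, 7 higher and 13 lower. The arrays of the weeks did not overlap for 700 of the 775, against 13.7% of all genes tested. Of the higher genes 226 had all week 4 arrays above week 1 (5.55% of all genes tested), and of the lower genes 474 had them all below (8.14%). These counts come from the arrays that made the calls, so they describe the genes and give no added support. The median over all genes was −0.02, 46.7% lay above 0, and 2721 genes had an unadjusted p under 0.05 (20.7%). A second probe set existed for 99 called genes and had the same sign for 72. The calls use the spread of all 37 arrays. In a fit of the 7 sham arrays alone, limma gave 0 calls. There 1441 genes had an unadjusted p under 0.05, and the adjusted p of Fos, Cpa3, Rnase2a, G6pc3 and Slc9a3r2 was 0.313. Leaving out week 1 replicate 1 left 285 calls, 72 higher and 213 lower. Leaving out week 1 replicate 2 left 134 higher and 258 lower genes, and 141 genes were called higher without week 4 replicate 3. Without the arrays farthest from the series there were 581 calls, of which 331 were among the 775.

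The starts of 6 genes are shown. Fos and Fosb had the largest differences among the named genes called lower, and Rnase2a and Cpa3 among the named genes called higher. Predicted genes and the other kinds passed over were not ranked. Dusp1 and Mrc1 are called members of the immediate early and macrophage lists. Each window runs from 250 bases before to 50 bases after the RefSeq start (GRCm38.p6), 5′ to 3′, with CG dinucleotides in capitals. Fos lies at chr12:85473640-85473939 on the plus strand, Fosb at chr7:19309996-19310295 on the minus strand and Dusp1 at chr17:26508423-26508722 on the minus strand. Rnase2a lies at chr14:51256063-51256362, Cpa3 at chr3:20242132-20242431, both on the minus strand, and Mrc1 at chr2:14229164-14229463 on the plus strand.
Fos: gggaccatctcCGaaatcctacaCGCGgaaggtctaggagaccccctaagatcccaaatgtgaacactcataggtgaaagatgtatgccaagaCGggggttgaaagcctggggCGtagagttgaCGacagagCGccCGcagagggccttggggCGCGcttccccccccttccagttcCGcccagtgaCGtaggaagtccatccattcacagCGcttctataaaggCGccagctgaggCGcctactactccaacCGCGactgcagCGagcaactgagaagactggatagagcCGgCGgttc
Fosb: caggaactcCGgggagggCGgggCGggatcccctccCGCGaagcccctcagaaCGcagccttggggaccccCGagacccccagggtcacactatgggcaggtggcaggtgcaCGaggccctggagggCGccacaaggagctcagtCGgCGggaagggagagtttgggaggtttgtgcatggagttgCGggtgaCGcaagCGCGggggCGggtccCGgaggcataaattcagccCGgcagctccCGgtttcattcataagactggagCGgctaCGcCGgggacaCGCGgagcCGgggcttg
Dusp1: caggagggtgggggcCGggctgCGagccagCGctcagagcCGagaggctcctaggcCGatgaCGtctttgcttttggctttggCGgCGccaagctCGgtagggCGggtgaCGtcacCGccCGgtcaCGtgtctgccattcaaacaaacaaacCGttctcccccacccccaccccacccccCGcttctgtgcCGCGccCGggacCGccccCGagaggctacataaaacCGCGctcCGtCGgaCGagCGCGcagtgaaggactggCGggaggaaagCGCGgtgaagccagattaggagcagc
Rnase2a: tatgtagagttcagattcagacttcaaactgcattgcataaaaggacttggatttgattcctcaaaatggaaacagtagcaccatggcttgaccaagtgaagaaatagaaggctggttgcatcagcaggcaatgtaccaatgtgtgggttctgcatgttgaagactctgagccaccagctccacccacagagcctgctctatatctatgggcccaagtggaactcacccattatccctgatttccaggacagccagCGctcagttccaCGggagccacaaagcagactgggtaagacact
Cpa3: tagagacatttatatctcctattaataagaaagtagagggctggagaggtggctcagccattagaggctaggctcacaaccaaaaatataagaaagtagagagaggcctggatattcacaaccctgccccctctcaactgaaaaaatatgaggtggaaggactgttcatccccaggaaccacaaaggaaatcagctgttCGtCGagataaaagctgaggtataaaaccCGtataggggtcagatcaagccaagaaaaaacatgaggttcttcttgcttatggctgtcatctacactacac
Mrc1: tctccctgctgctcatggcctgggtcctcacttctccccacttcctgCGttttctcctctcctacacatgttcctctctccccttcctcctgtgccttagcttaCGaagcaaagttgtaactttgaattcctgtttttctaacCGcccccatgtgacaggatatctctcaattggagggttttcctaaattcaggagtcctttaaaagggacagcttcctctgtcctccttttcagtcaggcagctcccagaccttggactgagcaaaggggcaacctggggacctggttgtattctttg
The windows of Fos, Fosb and Dusp1 hold 20, 25 and 31 CG dinucleotides, and those of Rnase2a, Cpa3 and Mrc1 hold 2, 3 and 3. These 6 were picked by their differences, so the contrast between them is a description, and base composition over all called genes is given further on.

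Immediate early genes were lower at week 4. Fos, the partner of Jun in the AP-1 factor, stood at 8.87, 7.54 and 7.46 at week 1 and at 4.80, 6.52, 5.95 and 5.55 at week 4. Every week 4 array lay below every week 1 array, and week 4 replicate 1 was lowest. Fos fell by 2.25 ± 0.45, a 4.76-fold difference (adjusted p = 0.00404). Fosb, its close relative, stood at 8.20, 6.78 and 7.12 at week 1 and at 4.15, 5.93, 5.15 and 5.31 at week 4. These arrays did not overlap either, with a difference of −2.23 ± 0.49 (adjusted p = 0.00773). Egr1, a zinc finger factor induced by growth factors, stood at 9.01, 8.29 and 8.04 and then at 5.86, 7.41, 6.77 and 7.05. Egr1 fell 3.18-fold, a log2 difference of −1.67 ± 0.29 (adjusted p = 0.00161), again with no overlap. Dusp1, a phosphatase that turns off MAP kinases and is itself induced by stress and glucocorticoids, stood at 11.04, 10.09 and 10.14 and then at 8.57, 9.79, 9.68 and 8.92. Its arrays were also apart, at −1.18 ± 0.29 (adjusted p = 0.0165).

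Over the whole list of 22 immediate early genes tested, 7 were called lower (3.95% over all genes tested) and 0 higher, 19 lay below 0, and the median difference was −0.56. Besides the 4 genes above, the called members were the orphan nuclear receptor gene Nr4a1 (−1.28 ± 0.39, adjusted p = 0.0475), Egr3 (−0.93 ± 0.24, adjusted p = 0.0191) and the AP-1 subunit gene Junb (−0.59 ± 0.15, adjusted p = 0.0191). The stress-induced factor gene Atf3 (−0.85 ± 0.30, adjusted p = 0.0881), the antiproliferative gene Btg2 (−0.63 ± 0.21) and Egr2 (−0.66 ± 0.49) were not called. Calls lost when single arrays were left out were Egr3 without week 1 replicate 1 (−0.91) or 3 (−0.75) or week 4 replicate 1 (−0.82) or 3 (−0.78), and Junb without week 1 replicate 1 (−0.62) or 2 (−0.58) or week 4 replicate 3 (−0.53). Midn encodes midnolin, a factor in the breakdown of immediate early proteins, and lies outside the list. It stood at 9.03, 9.23 and 9.05 at week 1 and at 7.28, 8.56, 8.22 and 8.47 at week 4, a difference of −0.97 ± 0.18 (adjusted p = 0.00239). The same direction was measured without the 2 arrays farthest from the series, with 4 of 22 members called and a median of −0.49. The count was 2 without week 1 replicate 1, which had the highest Fos, Fosb and Egr1, and 4 without week 4 replicate 1, which had the lowest. Without week 1 replicate 1, Fosb (−1.82) and Dusp1 (−0.87) were no longer called, and without week 4 replicate 1, Dusp1 (−0.96) and Nr4a1 (−0.74) were not. Nr4a1 was also lost without any single week 1 array (−1.43 to −1.15) or week 4 replicate 4 (−1.27). The calls of Fos, Egr1 and Midn held when each sham array was left out, Fos at −2.52 to −1.79. At week 12 the sham arrays stood at 7.20, 6.89 and 6.19 for Fos and at 7.92, 8.03 and 7.85 for Egr1, above every week 4 array for Egr1.

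**Figure D1:**
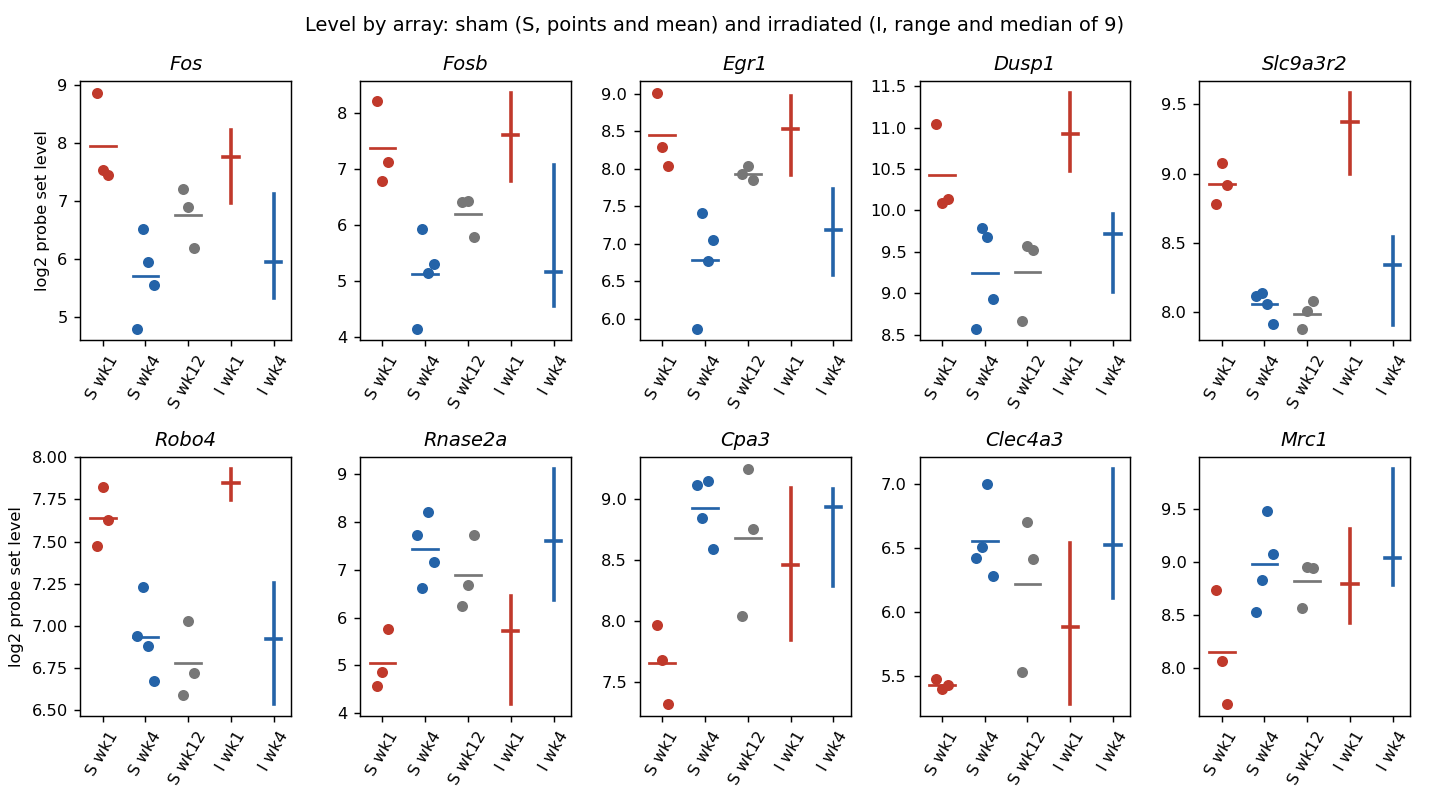
Log2 level (vertical axis) of 10 leading genes on each sham array of weeks 1, 4 and 12 (points, with the mean as a line) and the lowest, median and highest of the 9 irradiated arrays of weeks 1 and 4 (bars). In the 6 genes called lower, from Fos to Robo4, all week 4 sham points lie below the week 1 points, and of the 4 called higher, Rnase2a, Cpa3 and Clec4a3 do not overlap while Mrc1 does.

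Vascular genes were also lower at week 4, although the general endothelial markers Pecam1 and Cdh5 were not called. Of 23 tested, 6 were called lower (3.95% over all genes tested) and 1 higher (1.93%), 18 lay below 0 and the median was −0.31. Robo4, the roundabout receptor of endothelium, stood at 7.47, 7.82 and 7.63 at week 1 and at 6.94, 7.23, 6.88 and 6.67 at week 4. The weeks did not overlap, and the difference was −0.71 ± 0.13 (adjusted p = 0.00287). Notch4, the endothelial Notch receptor, stood at 6.79, 7.21 and 7.01 and then at 6.46, 6.30, 6.29 and 6.43. All 4 later arrays lay below the earlier ones, at −0.64 ± 0.13 (adjusted p = 0.00541). Also lower were the TGF-beta co-receptor endoglin gene Eng (−0.51 ± 0.10, adjusted p = 0.00371), the endothelial transcription factor gene Sox18 (−0.59 ± 0.14, adjusted p = 0.0129), the receptor kinase gene Tie1 (−0.47 ± 0.12, adjusted p = 0.0191) and the venous ephrin receptor gene Ephb4 (−0.36 ± 0.10, adjusted p = 0.0258). The tight junction gene Cldn5 differed by −0.67 ± 0.25 and was not called (adjusted p = 0.102). Pecam1 (−0.16 ± 0.15) and Cdh5 (−0.08 ± 0.15), adhesion genes of all endothelium, were not called. The member called higher was Ace, the enzyme that makes angiotensin II, which stood at 8.37, 8.33 and 8.06 and then at 8.80, 8.71, 9.05 and 8.58 (0.53 ± 0.12, adjusted p = 0.00878). The calls of Robo4, Notch4, Eng and Ace held when each sham array was left out. Ace was not called without both arrays farthest from the series (0.43, adjusted p = 0.0704). Sox18 was lost without week 1 replicate 2 (−0.54), Tie1 without week 1 replicate 1 (−0.46) or 2 (−0.44), and Ephb4 without week 1 replicate 1 or 2 or week 4 replicate 1 or 4, at −0.36 to −0.31. The list kept 4 lower calls without week 1 replicate 1 and 3 without week 1 replicate 2.

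The Notch pathway overlaps with that list through Notch4. Its receptors are cut when a ligand on a neighbouring cell binds, and the freed part switches on targets such as the Hes and Hey genes. Of 20 tested members, 4 were called lower (3.95% over all genes tested) and 0 higher, 17 lay below 0 and the median was −0.27. Among receptors these were Notch4 and Notch3, the receptor of mural cells around vessels (−0.59 ± 0.16, adjusted p = 0.0310). Among targets these were Nrarp, a feedback inhibitor (−0.85 ± 0.23, adjusted p = 0.0243), and the repressor gene Heyl (−0.60 ± 0.15, adjusted p = 0.0167). Nrarp stood at 6.28, 6.01 and 6.25 at week 1 and at 4.76, 5.51, 5.52 and 5.52 at week 4, so 3 of the later arrays were alike and replicate 1 lay below them. The ligand gene Dll4 (−0.59 ± 0.22, adjusted p = 0.101) and the modifier gene Lfng (−0.69 ± 0.23, adjusted p = 0.0680) were not called. Nor were the targets Hes1 (0.005), Hey1 (−0.05), Hes5 (−0.11) and Hey2 (−0.33), looked up after the values were seen. Without week 4 replicate 1, Notch4 (−0.67) was the 1 called member, and Nrarp was at −0.66, Heyl at −0.49 and Notch3 at −0.50. The count was 2 when any 1 of the week 1 arrays was left out. Heyl was then lost without replicate 2 (−0.53) or 3 (−0.53), Notch3 without replicate 1 (−0.53) or 2 (−0.43) and Nrarp without replicate 1 (−0.80) or 3 (−0.82).

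Other genes among the 20 named genes that fell most did not come from 1 list, though G6pc3 and Sik1 are both members of the insulin and IGF list. G6pc3, the glucose-6-phosphatase of most tissues, stood at 9.63, 9.76 and 9.64 at week 1 and at 8.77, 8.90, 8.78 and 8.60 at week 4. The weeks were clearly apart, and G6pc3 differed by −0.91 ± 0.11 (adjusted p = 5.99e-05). Slc9a3r2, a scaffold of ion exchangers and receptors, stood at 8.78, 9.08 and 8.92 and then at 8.12, 8.14, 8.06 and 7.92. It differed by −0.87 ± 0.13 (adjusted p = 0.000404), and the sham arrays of week 12, at 7.88, 8.01 and 8.08, lay with those of week 4. Further genes were Eif5a, a translation factor (−0.88 ± 0.18), Hnrnpa0, an RNA-binding protein (−0.87 ± 0.15), the pseudokinase gene Nrbp2 (−0.86 ± 0.16) and the scaffold gene Grasp (−0.86 ± 0.15), with adjusted p between 0.00140 and 0.00555. Pmepa1, which restrains TGF-beta signalling, stood at 9.99, 9.73 and 10.03 and then at 7.47, 9.06, 9.10 and 9.38 (−1.16 ± 0.25, adjusted p = 0.00734). Week 4 replicate 1 lay far below the others, and without it Pmepa1 was still called at −0.73. The p53-inducible gene Trp53i11 differed by −1.30 ± 0.31 (adjusted p = 0.0123), or by −0.94 without that array, and was not called without week 1 replicate 3 (−1.14) or without both arrays farthest from the series (−0.78). Lpcat4, a lysophospholipid acyltransferase, differed by −0.97 ± 0.21 (adjusted p = 0.00757), and was not called without week 1 replicate 1 (−0.86). Less steady were Bcl3, a partner of NF-kappaB (−0.94 ± 0.27), the adaptor gene Stap2 (−0.94 ± 0.25) and the kinase gene Sik1 (−0.94 ± 0.25). Their adjusted p lay between 0.0234 and 0.0359. All 3 calls were lost without week 4 replicate 1, at −0.49, −0.64 and −0.75, and without week 1 replicate 1 (−1.04, −0.86 and −0.65) or 2 (−0.88, −0.85 and −0.93). Bcl3 was also lost without week 1 replicate 3 (−0.91).

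Of the luminal epithelial genes, 3 of 26 tested were called lower (3.95% over all genes tested) and 0 higher. Foxa1, the pioneer factor that opens chromatin for the estrogen receptor, stood at 8.99, 9.70 and 8.13 at week 1 and at 7.95, 7.89, 7.76 and 7.51 at week 4. The arrays did not overlap, but week 1 replicate 3 came close to the later ones (−1.16 ± 0.29, adjusted p = 0.0145). The transcriptional co-regulator gene Cited1 (−0.82 ± 0.25, adjusted p = 0.0479) and the protease inhibitor gene Spint2 (−0.81 ± 0.23, adjusted p = 0.0307) were the other called members, and the arrays of both overlapped between the weeks. The pan-epithelial gene Epcam (−0.24 ± 0.26), the alveolar factor gene Elf5 (−0.35 ± 0.35) and the luminal factor gene Gata3 (−0.62 ± 0.28, adjusted p = 0.194) were not called. The list moved with single arrays, and its score was lowest, at −0.72, on week 1 replicate 3. Its median was −0.24, −0.69 without week 1 replicate 3 with 6 members called, and −0.00049 without week 1 replicate 2, with 0 called. Without week 1 replicate 1 it had 0 calls as well. Foxa1 was then at −1.14 (without replicate 1) and −0.79 (without replicate 2), Cited1 at −0.88 and −0.51 and Spint2 at −0.79 and −0.54. Without week 4 replicate 1, Cited1 (−0.78) and Spint2 (−0.66) were lost and 1 call was left, and Cited1 was also lost without week 4 replicate 4 (−0.66) and Spint2 without week 4 replicate 3 (−0.77). None of 20 basal genes was called.

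Higher at week 4 were genes of mast cells. Of 11 tested, 3 were called higher (1.93% over all genes tested) and 0 lower, with a median of 0.38. Cpa3, the mast cell carboxypeptidase stored in granules, stood at 7.97, 7.69 and 7.32 at week 1 and at 9.12, 8.85, 9.15 and 8.59 at week 4. The weeks did not overlap, and Cpa3 rose 2.41-fold (1.27 ± 0.28, adjusted p = 0.00788). Mcpt4, a granule chymase, stood at 6.32, 5.99 and 5.90 and then at 7.63, 6.78, 7.04 and 6.73 (0.98 ± 0.27, adjusted p = 0.0270). The chymase gene Cma1 differed by 0.58 ± 0.16 (adjusted p = 0.0310). The mast cell receptor gene Mrgprb1 (0.85 ± 0.28, adjusted p = 0.0696), the histamine-making enzyme gene Hdc (0.38 ± 0.19) and the stem cell factor receptor gene Kit (−0.26 ± 0.26), which luminal cells also express, were not called. Cpa3 was called when any 1 sham array was left out, and stood at 1.04 without the 2 arrays farthest from the series, where 0 of 11 mast cell genes were called (adjusted p of Cpa3 = 0.0696). Mcpt4 and Cma1 were lost without week 4 replicate 1 (0.78 and 0.48), week 4 replicate 3 (0.98 and 0.53), week 1 replicate 2 (0.94 and 0.60) or week 1 replicate 3 (0.89 and 0.41), and Mcpt4 also without week 1 replicate 1 (1.10).

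Of 22 macrophage genes tested, 2 were called higher and 0 lower, 19 lay above 0, and the median was 0.36. Over all genes tested 1.93% were called higher and 46.7% lay above 0, and 2 calls are too few to set against that share. Other genes that myeloid cells express are described with this list, picked from the 20 named called genes that rose most and not from a list. Rnase2a, a ribonuclease of the eosinophil-associated family, had the largest difference of all higher genes named. It stood at 4.57, 4.85 and 5.76 at week 1 and at 7.73, 6.61, 8.21 and 7.16 at week 4. No arrays overlapped, and it rose 5.16-fold (2.37 ± 0.56, adjusted p = 0.0129). The call was lost without week 1 replicate 1 (2.12) or 2 (2.26). Clec4a3, a C-type lectin of myeloid cells, was nearly constant at week 1, at 5.47, 5.40 and 5.43, and stood at 6.42, 6.51, 7.0 and 6.28 at week 4 (1.12 ± 0.28, adjusted p = 0.0163). Its call was lost without week 1 replicate 1 (1.14) or 2 (1.10) or week 4 replicate 3 (0.97).

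Further genes picked in this way were the lectin genes Cd209d (1.20 ± 0.35), Cd209a (0.93 ± 0.28) and Clec4a1 (0.89 ± 0.24), the Toll-like receptor genes or partners Ly96 (0.95 ± 0.28) and Tlr8 (0.84 ± 0.26) and the chemokine genes Pf4 (0.89 ± 0.27) and Ccl9 (0.89 ± 0.26). Their adjusted p lay between 0.0254 and 0.0485, and each of these 7 calls was lost when some single arrays were left out, for Ly96 with any of the 7. Their differences then stayed between 0.59 and 1.37. Cd209a is also the 1 called member of the antigen presentation list, in which 14 of 17 genes tested lay below 0 and the median was −0.06. In the macrophage list the called members were Mrc1 and Cd163. Mrc1, the mannose receptor, stood at 8.73, 8.07 and 7.66 and then at 8.54, 8.83, 9.48 and 9.08, so that week 4 replicate 1 lay below the highest week 1 array (0.83 ± 0.23, adjusted p = 0.0297). Cd163, the receptor that takes up haemoglobin, differed by 0.78 ± 0.23 (adjusted p = 0.0446). The general macrophage genes Csf1r (0.37 ± 0.21), Adgre1 (0.55 ± 0.22), C1qb (0.61 ± 0.28) and C1qc (0.63 ± 0.37) were not called. The list had 0 calls without week 1 replicate 2 or 3 or week 4 replicate 3 or 4, and medians from 0.29 to 0.53 over the 7 single omissions. Mrc1 then stood at 0.78, 0.58, 0.66 and 0.79, and Cd163 at 0.79, 0.45, 0.66 and 0.80. Cd163 was also lost without week 4 replicate 1 (0.79).

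Outside the lists, Agtr2, the angiotensin II type 2 receptor, stood at 5.02, 4.93 and 4.51 at week 1 and at 4.56, 5.90, 6.43 and 6.49 at week 4. The later arrays other than replicate 1 were high and replicate 1 was at the week 1 level (1.02 ± 0.30, adjusted p = 0.0416). Without week 4 replicate 1 it differed by 1.45, and the call was lost without any other single array, at 0.81 to 1.12. Enpep, an aminopeptidase that trims angiotensin II, showed the reverse, at 8.20, 8.02 and 7.87 and then at 10.08, 8.57, 8.81 and 8.48, with replicate 1 highest (0.96 ± 0.25, adjusted p = 0.0191). It was at 0.59 and not called without that array (adjusted p = 0.0589), and was lost too without week 1 replicate 2 (0.95) or 3 (0.88). Ccl11, the eosinophil-attracting chemokine eotaxin, differed by 0.64 ± 0.17 (adjusted p = 0.0234), and was lost without week 1 replicate 2 (0.47) or week 4 replicate 1 (0.56). Psmg2, a chaperone of proteasome assembly, stood at 6.37, 6.70 and 6.59 and then at 7.64, 7.14, 7.35 and 7.41 (0.83 ± 0.13, adjusted p = 0.000937), and was called with each array left out.

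Genes of oxidative phosphorylation, the mitochondrial respiratory chain, were called higher in 5 of 32 and lower in 0, and 31 of 32 lay above 0, with a median of 0.22. Over all genes tested 1.93% were called higher and 46.7% lay above 0. Atp5md, a small subunit of ATP synthase outside that list, stood at 8.97, 9.16 and 8.91 at week 1 and at 10.88, 9.82, 9.98 and 9.61 at week 4. The weeks did not overlap, and Atp5md rose 2.08-fold (1.06 ± 0.21, adjusted p = 0.0037). Of other ATP synthase genes, looked up after the values were seen, Atp5j2 was called higher (0.61, adjusted p = 0.0167) and Atp5g2 lower (−0.63, adjusted p = 0.000245). The called members of the list were the complex I genes Ndufb8 (0.78 ± 0.21) and Ndufb9 (0.74 ± 0.20), the complex III genes Cyc1 (0.69 ± 0.21) and Uqcrh (0.51 ± 0.12) and the complex IV gene Cox7b (0.50 ± 0.14). Their adjusted p lay between 0.0123 and 0.0436. The electron carrier gene Cycs stood at 10.19, 10.16 and 10.23 and then at 12.27, 10.20, 10.70 and 10.19, and was not called (0.64 ± 0.29, adjusted p = 0.203). Its high value was on week 4 replicate 1, which had the highest brown adipocyte score of the 7 arrays. On the list score, the mean deviation of members from their means over 37 arrays, the week 1 arrays lay at −0.20, −0.18 and −0.27. The week 4 arrays lay at 0.51, −0.16, 0.13 and −0.18, and the brown adipocyte score on them at 0.79, −0.10, 0.41 and −0.36, in the same order. Whether brown adipocyte content had a part in the list's result was not tested. Without week 4 replicate 1 the median was 0.11 with 1 gene called, and the count was also 1 without week 1 replicate 2 or 3, 3 without week 4 replicate 3 and 0 without week 1 replicate 1. Uqcrh was lost only in that last setting among the single omissions (0.49), and the other 4 members in several, at differences of 0.34 to 0.85. Without both arrays farthest from the series 0 members were called, 22 of 32 lay above 0 and the median was 0.09. With 4 tissue covariates 5 were called, 22 lay above 0 and the median was 0.07. The Atp5md call held without each array, at 0.79 to 1.21.

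**Figure D2:**
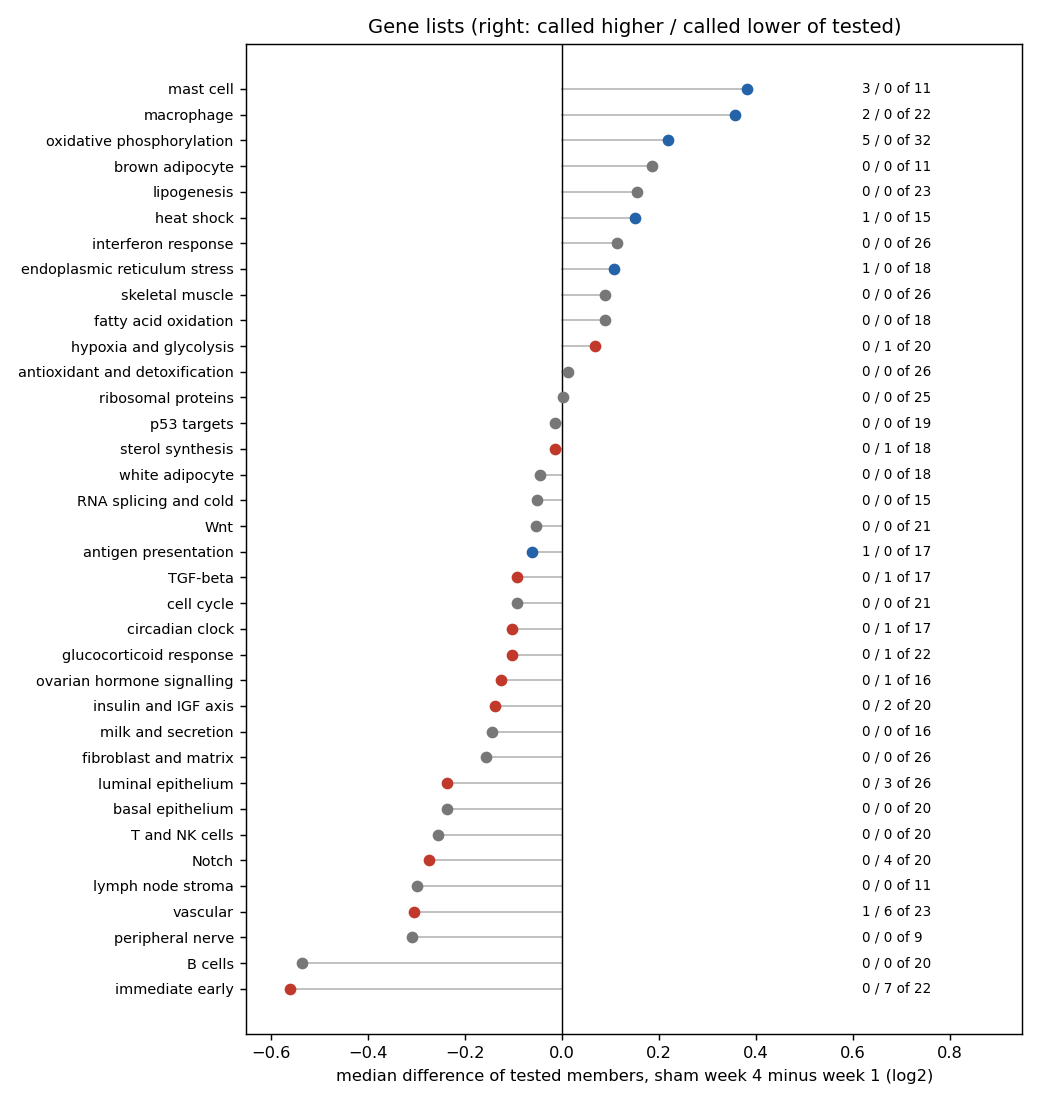
Median log2 difference, sham week 4 minus week 1 (horizontal axis), of the tested members of each gene list with 9 or more tested, with the numbers called higher and lower beside it. Blue marks more members called higher, red more called lower and grey as many of each; immediate early genes lie lowest at −0.56, followed by B cell genes, with 0 called, and mast cell genes highest at 0.38.

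Of the circadian clock genes 1 of 17 was called lower and 0 higher. Bhlhe40, a repressor of the clock that is also induced by stimuli, stood at 7.44, 7.62 and 7.59 and then at 6.65, 6.83, 6.63 and 6.72 (−0.84 ± 0.20, adjusted p = 0.0138), and was lost without week 1 replicate 2 (−0.81). Per1 (−0.43 ± 0.23) and the output gene Tef (−0.48 ± 0.23) were not called. In glucocorticoid response, the genes switched on by the stress hormone corticosterone, 1 of 22 was called lower, which was Dusp1, and the median was −0.10. The insulin and IGF list had 2 of 20 called lower, G6pc3 and Sik1. Single members were called in the heat shock list (the mitochondrial chaperonin gene Hspe1, 0.62 ± 0.17), the endoplasmic reticulum stress list (Dnajb9, 0.70 ± 0.16), the TGF-beta list (the repressor gene Ski, −0.54 ± 0.12), the hypoxia and glycolysis list (the glucose transporter gene Slc2a1, −0.56 ± 0.15) and the sterol list (the regulator gene Srebf2, −0.48 ± 0.10). Over all genes tested 1.93% were called higher and 3.95% lower, and 1 or 2 calls per list are too few to set against these shares. The calls of these single members were also lost without single arrays, except that of Srebf2. Dnajb9 was lost without week 1 replicate 1 (0.64) and Ski without week 1 replicate 1 (−0.45) or 2 (−0.49). Hspe1 was lost without any single week 1 array or week 4 replicate 1 (0.40 to 0.68). Slc2a1 was lost without any of those arrays or week 4 replicate 3 (−0.61 to −0.45). Among the tested members of the lists of ribosomal proteins (25), p53 targets (19), interferon response (26), cell cycle (21), lipogenesis (23), fibroblast and matrix (26) and white adipocyte genes (18), 0 were called in limma. The ribosomal list does not hold every such gene, and outside it Rps26 was called higher (0.43, adjusted p = 0.00921) and Rps25 lower (−0.52, adjusted p = 0.0385), both looked up after the values were seen.

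The irradiated mice made the same journey on the same schedule. The means of their 18 arrays of weeks 1 and 4 use no array of the sham comparison. There limma called 2750 genes (20.9%), 1158 higher (8.79%) and 1592 lower (12.1%), with 9 arrays a week. Of the 775 genes called between the sham weeks, 754 (97.3%) had the same sign in the irradiated arrays, 544 were also called there in that direction, and 0 were called in the other. The 544 are 70.2% of the sham calls and 19.8% of the irradiated ones. Both sets of calls use the same spread per gene, taken from all arrays of the series. A gene of small spread is more readily called in both, so this overlap of calls is not independent support. For 660 of the 775 genes the sign was the same after gamma rays, 30 cGy Si and 10 cGy Si taken singly. Over all genes tested the sham and irradiated differences had a correlation of 0.40. The share of equal sign over all genes was not counted. In the irradiated arrays the genes called higher between the sham weeks had a median difference of 0.25 and those called lower −0.31. Their sham medians, 0.48 and −0.49, come from the values that chose the genes and are not compared with these. The irradiated arrays of the weeks were apart in the same direction for 44 of the 254 higher genes (17.3%, against 1.23% of all genes tested) and for 146 of the 521 lower genes (28.0%, against 2.76%).

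Fos lay between 6.96 and 8.22 on the irradiated arrays of week 1, with a median of 7.75, and between 5.33 and 7.12 at week 4, with a median of 5.95. It differed by −1.59 (adjusted p = 0.000167), and Fosb by −2.11, Egr1 by −1.24 and Dusp1 by −1.31. Egr1 and Dusp1 did not overlap between these weeks, and 12 of 22 immediate early genes were called lower and 1 higher. Robo4 (−0.91), Notch4 (−0.81), Eng (−0.39) and Slc9a3r2 (−1.0) were called as well, and 12 of 23 vascular genes were lower. Rnase2a ranged from 4.18 to 6.45 and then from 6.37 to 9.12, and rose by 1.85 (adjusted p = 0.000331). Clec4a3 (0.61) and Cd163 (0.41) were called higher too, but Cd209d (0.22), Cd209a (0.01), Clec4a1 (0.26) and Ccl9 (0.12) were not called. Of the 22 macrophage genes 4 were called higher, with a median of 0.22. Among the mast cell genes 1 of 11 was called higher and 2 lower, and Cpa3 differed by 0.25 (adjusted p = 0.329) and Mcpt4 by 0.28. Cpa3 ranged from 7.85 to 9.09 in the irradiated glands of week 1, above the sham arrays of that week except replicate 1, and from 8.29 to 9.08 at week 4. Lists with few sham calls had more there, such as ribosomal proteins (13 of 25 higher), circadian clock (7 of 17 lower and 1 higher) and glucocorticoid response (9 of 22 lower). Epithelial lists had medians of the other sign. Luminal genes had 5 of 26 called higher and 2 lower with a median of 0.38, against −0.24 in sham glands, and basal genes had 0 of 20 called with a median of 0.18, against −0.24. Oxidative phosphorylation had 2 of 32 called higher and a median of 0.08, against 0.22. These differences between lists were not tested.

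**Figure D3:**
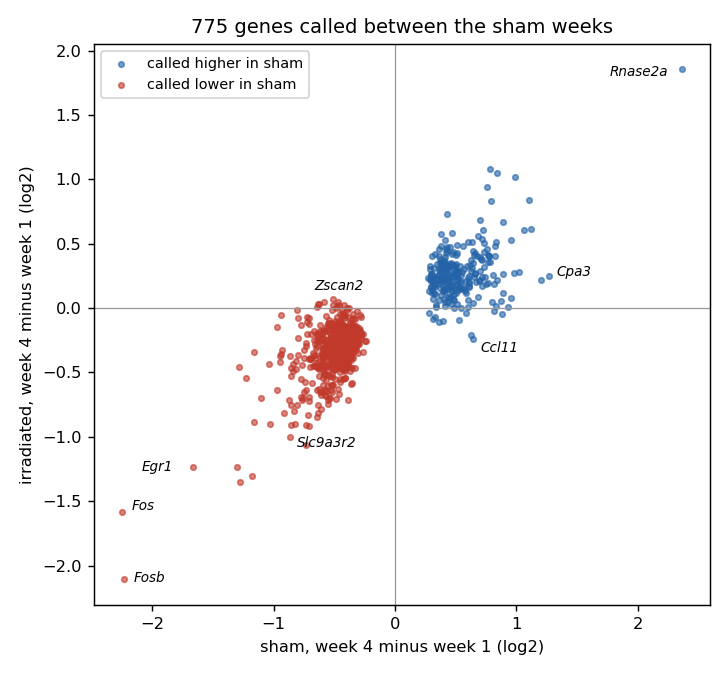
Log2 difference between weeks 4 and 1 in irradiated glands (vertical axis, mean of 3 treatments, 18 arrays) against that in sham glands (horizontal axis, 7 arrays), 1 point per gene called between the sham weeks. Of the 775 points 754 lie in the quadrants of equal sign, and Fos, Fosb and Rnase2a lie farthest out.

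The test of the difference itself, sham week change minus irradiated week change, called 0 of 13174 genes in limma (0%), with 1167 at an unadjusted p under 0.05 (8.86%). The smallest adjusted p was 0.12, for Pcsk6, a proprotein convertase. Pcsk6 stood at 7.91, 8.12 and 7.77 and then at 8.57, 8.33, 8.43 and 7.95 in sham glands, a difference of 0.39 against −0.41 in irradiated glands. It was the 1 gene called in this test without week 4 replicate 4 (adjusted p = 0.00390). Other genes with small p were Pid1 (0.37 against −0.39), Ace (0.53 against −0.09), Ccl11 (0.64 against −0.24) and the hormone-induced factor gene Zbtb16 (0.70 against −0.65) in one direction. In the other were Tcirg1, a proton pump subunit (−0.62 against −0.14), the tetraspanin gene Cd82 (−0.33 against 0.32), the sugar phosphate transporter gene Slc37a1 (−0.58 against 0.25), Rab10os (−0.32 against 0.15) and Zscan2 (−0.51 against 0.02). None of these 10 passed the adjusted threshold, nor did Cpa3 (a difference of 1.02 between the changes, adjusted p = 0.496).

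The mean of all genes called between the sham weeks was then followed over every array. For the 254 higher genes, the deviation from the 37-array mean was −0.31 to −0.09 on the 9 irradiated arrays of week 1 and −0.05 to 0.18 on those of week 4. For the 521 lower genes it was 0.20 to 0.29 and then −0.17 to 0.04. Neither set overlapped between the weeks. At week 12, collected at the home facility like week 4, the 9 irradiated arrays lay at −0.005 to 0.21 and at −0.20 to −0.09. The 3 sham arrays of week 12 lay at −0.009 to 0.21 and at −0.20 to −0.07, with those of week 4.

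**Figure D4:**
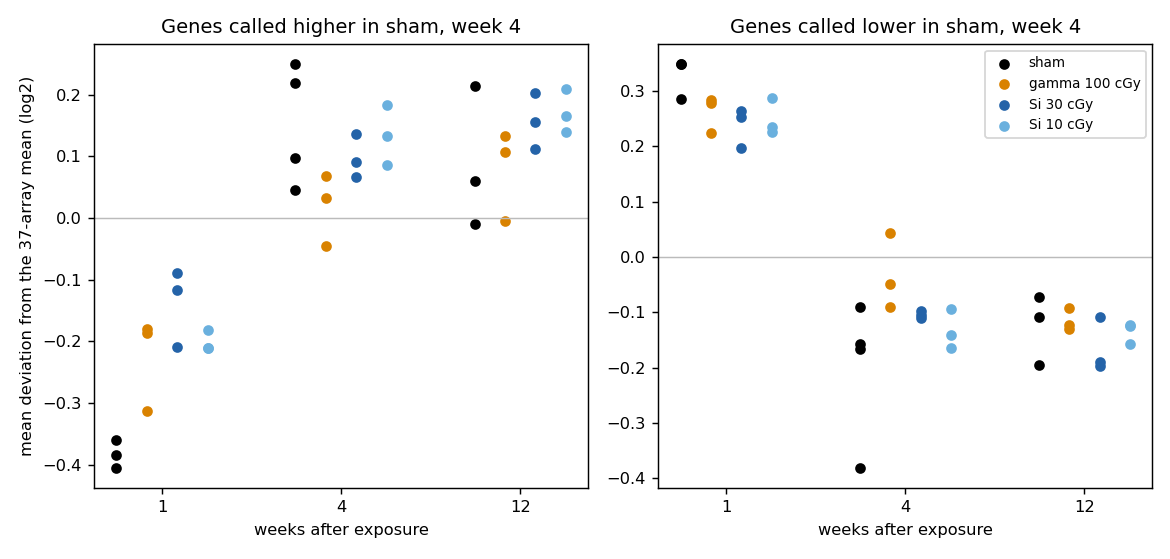
Mean log2 deviation from the 37-array mean (vertical axis) of the genes called higher (left) and lower (right) between the sham weeks, on each of the 37 arrays by weeks after exposure (horizontal axis) and treatment. The sham points of weeks 1 and 4 chose the genes; the irradiated points of week 1 lie apart from those of weeks 4 and 12 in both panels.

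Genes called lower had starts of higher GC content, a property that the choice of arrays did not use. A RefSeq window was found for 10264 of 12726 protein-coding genes tested (80.7%). The median GC content was 60.7% over all of them and over the genes called higher, and 63.7% over the genes called lower. More than 60% GC was found in 52.3% of all windows, 52.2% of those of higher genes and 67.7% of those of lower genes. With genes ranked by GC content and split into 5 bins, the share called lower went from 1.62% over 3.40%, 4.33% and 5.13% to 5.71%. The share called higher was 2.90% in the lowest bin and between 1.23% and 2.12% in the others. In the irradiated arrays the shares called lower went from 7.13% to 15.3%, with means from other arrays but the same spread per gene. Across the 10264 genes GC content and the sham difference had a correlation of −0.13, given as a description, since genes on an array share samples and probes of like composition. The E-box CACGTG, the site of clock and related factors, was found on either strand in 9.87% of all windows, 7.39% of those of higher and 10.2% of those of lower genes. The nuclear receptor motif AGGTCA was found on either strand in 12.5%, 11.3% and 9.95%, and the CCAAT box in 37.9%, 35.5% and 37.6%.

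**Figure D5:**
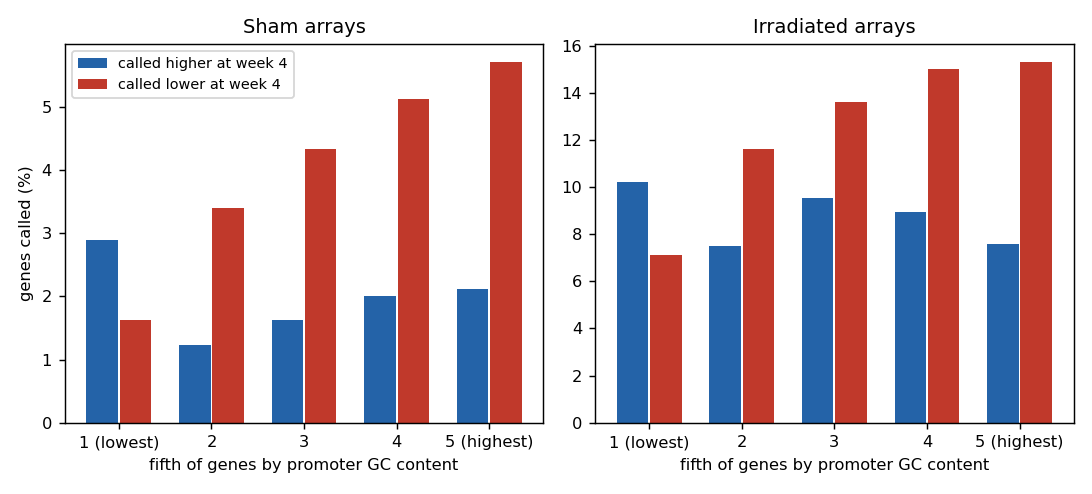
Share of protein-coding genes called higher (blue) or lower (red) at week 4 against week 1 (vertical axis, %) in 5 bins of genes by GC content of the promoter window (horizontal axis), in sham arrays (left) and irradiated arrays (right). The share called lower is smallest in the lowest bin, 1.62% and 7.13%, and largest in the highest bin, 5.71% and 15.3%.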

How the data were processed

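Total RNA samples of mammary tissue were hybridised to 37 Affymetrix arrays, 1 sample each. The authors deposited log2 expression values made by RMA with oligo, as the submitters' processing notes say. Versions and hybridisation batches are not given in the sources used here. No further normalisation was applied to the 35556 probe sets. The supplied platform annotation gave 1 gene symbol to 21218 of them, several to 1881 and none listed for 12457. For each of 18820 genes the probe set with the highest mean over 37 arrays was kept, and genes with a mean above the 30th percentile (log2 4.04) were tested. Different probe sets of a gene can disagree.

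A limma model (version 3.58.1, R 4.3.3) with a mean for each of 12 treatment-by-week groups took in all 37 arrays (25 residual degrees of freedom, eBayes moderation). Contrasts were sham week 4 minus week 1, the same over the mean of 3 irradiated groups, and their difference. Each test was two-sided, p-values were adjusted by Benjamini-Hochberg, and every adjusted p comes from limma. The number of arrays limits the precision.

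The comparison, its members and the 39 gene lists were chosen with earlier results of these data known. The genes that could be named were those 20 called in each direction that differed most, up to 8 members of each list described (called ones first), tissue markers and the 5 genes per direction with the smallest p of the difference between sham and irradiated. Predicted genes, pseudogenes, small RNAs, olfactory receptors and antigen receptor segments were counted but passed over (34 called genes). Not all of them are printed. Lists are described by counts and medians, without a set test. Same-numbered arrays of weeks 1 and 4 deviated from their group means with correlations of 0.15, −0.38 and −0.28, so the numbers were not taken to pair samples. Promoter windows come from RefSeq (GRCm38.p6). Alternatives were other filters, probe set means, quantile normalisation, a trended and robust eBayes, weights per array, a replicate block, a fit of only the arrays compared, 4 tissue covariates and leaving out arrays. The covariates were the mean levels of the lymphocyte, skeletal muscle, epithelial and brown adipocyte lists.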

Additional observations from a re-analysis of the deposited data

Results flagged for a closer look

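Among 111 genes and 16 list scores examined on the 4 sham arrays of week 4, 7 had 1 array far from the other 3 by Dixon's test, and in each of the 7 it was replicate 1. Chance flags about 1 in 20 groups, and 7 among the items examined is near that rate. The rate does not cover that all 7 fell on replicate 1, an array far from the series by its correlations. Why they did was not tested. The items are not independent, since Acta2 is a member of the basal epithelium list. Levels on replicate 1 were 6.67 for Aox3, an aldehyde oxidase (others 5.63 to 5.77), 7.47 for Pmepa1 (others 9.06 to 9.38), 7.75 for Sik1 (others 8.47 to 8.62), 5.70 for Stap2 (others 6.84 to 6.95), 4.76 for Nrarp (others 5.51 to 5.52) and 9.74 for Acta2, the actin of myoepithelial and smooth muscle cells (others 10.93 to 11.03). The basal epithelium score on that array was −0.85, against −0.02 to 0.05 on the others.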

How the results depend on the processing

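The 775 calls between the sham weeks were 604 without a filter, 924 with the filter at the 50th percentile, and between 723 and 895 with probe set means, quantile normalisation, trend and robust settings or the 4 tissue covariates. Array weights gave 1557 calls, 622 higher and 935 lower, of which 664 were among the 775. The fit of the 7 sham arrays alone gave 0 calls, 0 higher and 0 lower, with its own spread from 5 residual degrees of freedom. Leaving out each sham array gave 285 to 855 calls, 72 to 295 higher and 213 to 560 lower. The irradiated weeks gave 4204 calls with array weights and 2353 to 2631 with each array left out. The difference between sham and irradiated changes gave 0 calls, except 1 with the replicate block (Pcsk6, adjusted p = 0.00902), 1 without those 2 sham arrays that stand apart (Usp43, adjusted p = 0.0249, named after its value was seen) and, over the single omissions, 0 to 1. With the replicate number as a block, 700 genes were called between the sham weeks, 587 of them among the 775; the numbers do not pair samples by the check given, and this block leaves week 4 replicate 4 no weight, as no other group has that number. The called genes Atp5j2, Atp5g2, Rps26 and Rps25 and the uncalled genes Hes1, Hes5, Hey1 and Hey2 were not followed through these settings. Among the other named genes no called one changed sign. Of uncalled ones, Epcam was at 0.0575 with the tissue covariates and Pecam1 at 0.0438 without both arrays that stand apart, both with the sign turned. Epcam is a member of the epithelial lists behind 1 of these covariates, so there it was adjusted for a mean that contains it. Over the single omissions Kit ranged from −0.580 to 0.00499 and Elf5 from −0.845 to 0.0568, both above 0 only without week 1 replicate 2. The cause of these changes was not tested.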
